A study of Glycine max with 8 samples.

Results

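The 100 loci described here are the most abundant chromosomal loci in RNA-seq libraries of soybean (Glycine max) seedlings. Expected read counts were summed over the gene models of a locus and divided by the library total to give CPM, the usual depth-scaled level. The chromosomal loci were ranked by their mean CPM over all 8 libraries, 8 abundant loci being left out by name, and the first 100 of 46955 chromosomal loci were kept. Levels in these libraries therefore chose the members, and their abundance is given as a description. Libraries came from 2 genotypes. One was the line WEI6823, wild type for GmSIN1 (WT), and the second over-expressed this gene (OE), which encodes a salt-induced NAC transcription factor. The labels do not give the promoter of the transgene or how many transgenic lines were used. Seedlings aged 2 weeks were kept in hydroponic solution with NaCl at 150 mM or with a mock treatment for 6 h, giving 4 groups of 2 libraries, which the labels number 1 and 2. Every library was made from an equal mix of root and leaf RNA, in which fewer cells of a type and less RNA per cell cannot be told apart.

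In a plant seedling a small number of genes supply a large part of the messenger RNA. In leaves these are mostly genes of photosynthesis, and in all organs genes of protein synthesis and of basic metabolism are among them. Because a library is a fixed number of reads, a rise in one very abundant transcript lowers the measured share of all others. The soybean genome carries many genes as near-identical duplicates, between which an estimate such as an expected count has to divide reads. The files do not pair locus IDs with gene names, and none matched the reference gene table, so that loci are described by ID, or by rank in mean CPM, with their chromosome and the coding length of their longest model, and no function is given to them.

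Mean CPM fell from 6807 at rank 1 to 573 at rank 100. The 3 lowest-ranked members, Glyma.20G243500, Glyma.19G114500 and Glyma.13G160400, had 575, 574 and 573 CPM, and the next 3 loci, Glyma.02G249600, Glyma.12G122900 and Glyma.15G238600, had 566, 563 and 563 CPM. Coding lengths ran from 240 to 3294 bases with a median of 1107, against 1185 over the 34023 loci tested. A count favours long transcripts, and 61 of the 100 loci were also among the 100 with the highest FPKM, a level per length. The members lay on all 20 chromosomes, with 2 on chromosome 20 and 8 each on chromosomes 14 and 19. Of the 100 loci, 66 had 1 model, and 7 had counts that were whole, to within 0.01, in every library. Such whole counts were found at 12.9% of the loci tested. At the other members the counts were fractional in at least 1 library, as they are where reads are divided among similar loci, which leaves such levels less certain.

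Glyma.04G180400 on chromosome 4, with a coding length of 1662 bases, ranked first. It was 1 of the 7 loci with whole counts. It had 9847 and 9495 CPM in WT mock libraries 1 and 2 and 9105 and 9398 in the WT NaCl libraries. In OE it had 6315 and 3858 CPM in mock and 2445 and 3997 in NaCl, so that every OE library lay below every WT library. The log2 fold change of OE against WT was -0.86 with a standard error of 0.35 in mock (edgeR adjusted p = 0.154) and -1.48 with 0.35 in NaCl (adjusted p = 0.053), and neither passed 0.05. It was the most abundant member in all 4 WT libraries and in OE mock library 1. In OE mock library 2 and OE NaCl library 2 the locus of rank 3 led, and in OE NaCl library 1 Glyma.11G221000 led.

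The loci of rank 2, 4, 5 and 6 varied less among the OE libraries than Glyma.04G180400, while those of rank 7 and 8 varied more. Glyma.08G082900 (rank 2) and Glyma.05G128000 (rank 4) shared a coding length of 792 bases and had mean FPKM values of 4451 and 3672. Their WT libraries held 3307 to 3434 and 2779.7 to 2984 CPM. Both were lowest in OE mock library 1, at 2491 and 2018 CPM, and highest in OE mock library 2, at 4369 and 3574. Neither passed a genotype test. Glyma.17G186600 (rank 5, coding length 1344 bases) varied least among the first 10 loci, with 2871 to 2946 CPM in WT and 2522 to 2871 in OE. Glyma.19G046600 (rank 6, coding length 537 bases) had 1816 to 2007 CPM in WT, and 3492 and 2554 in the OE mock and 3200.4 and 2314 in the OE NaCl libraries. All OE libraries lay above all WT libraries, but its adjusted p was 0.103 in mock and 0.143 in NaCl.

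Glyma.11G221000 (rank 7, coding length 1332 bases) had 1384 to 1407 CPM in WT. In OE it had 2686 and 1264 CPM in the mock and 5736 and 1167 CPM in the NaCl libraries, above WT in both libraries numbered 1 and below WT in both numbered 2. Glyma.03G171100 (rank 8, coding length 1962 bases) had 2580.4 to 2636 CPM in WT, 1316 and 767 in OE mock and 2345 and 689 in OE NaCl. Every OE library was below every WT library, OE NaCl library 1 being nearest to WT. Its adjusted p was 0.151 in mock and 0.333 in NaCl. Glyma.05G022900 (rank 10, coding length 675 bases) had 1389.9 to 1452 CPM in WT and 1334 in OE NaCl library 1, against 2060.1, 2235 and 1967 in OE mock libraries 1 and 2 and OE NaCl library 2. The loci of rank 3 and rank 9 passed a genotype test and are described with the loci that did.

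**Figure D1:**
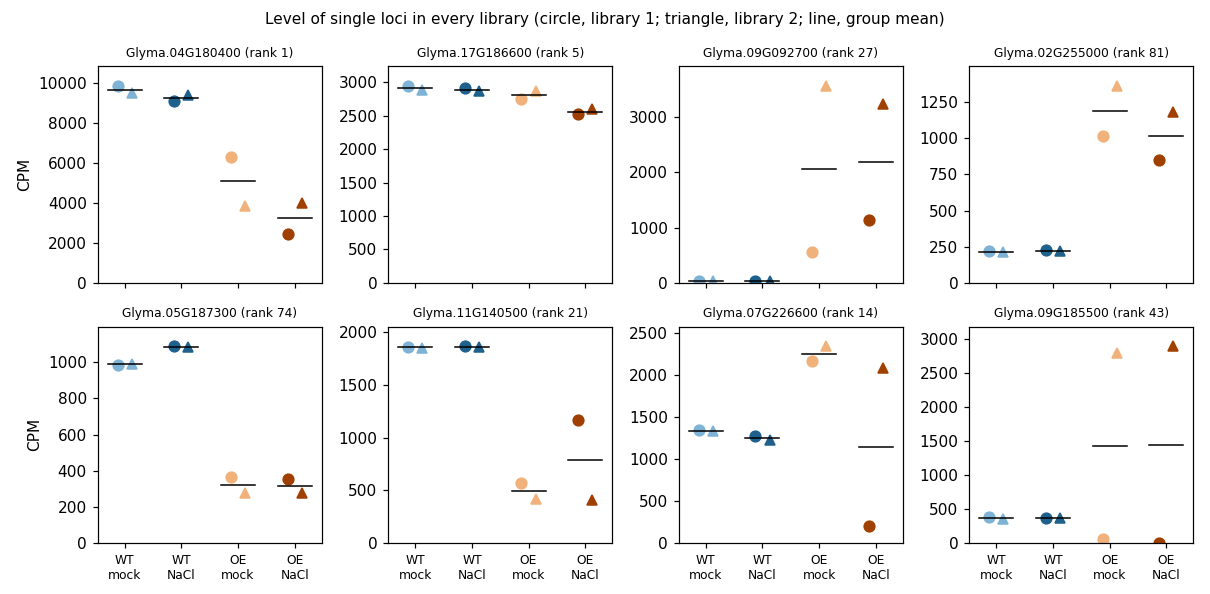
CPM of 8 of the 100 loci in each library, on a linear axis from 0 for each locus. Circles are libraries numbered 1, triangles libraries numbered 2, and lines are group means. The 4 WT libraries lie close together in every panel, while OE libraries 1 and 2 lie apart in most.

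Together the 100 loci held 10.2% and 10.1% of all expected counts in WT mock libraries 1 and 2, and 10.1% and 10.01% in the WT NaCl libraries. In OE they held 10.8% and 12.4% in mock and 10.8% and 11.4% in NaCl, so that every OE library lay above every WT library. The mean over the OE libraries was 11.3% ± 0.761 and over the WT libraries 10.1% ± 0.0875 (SD, n = 4 each, both treatments together). This order depended on how the loci were chosen. The 100 loci with the highest mean over the WT libraries alone held 10.6% in WT and 9.62% in OE, and those with the highest mean over the OE libraries alone held 9.12% in WT and 11.7% in OE. These WT and OE choices shared 66 of 100 loci, and 80 and 85 of the members were among them. The first 10 members held 2.81% to 2.92% of the counts in WT and 2.67% to 2.99% in OE, with overlapping ranges.

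**Figure D2:**
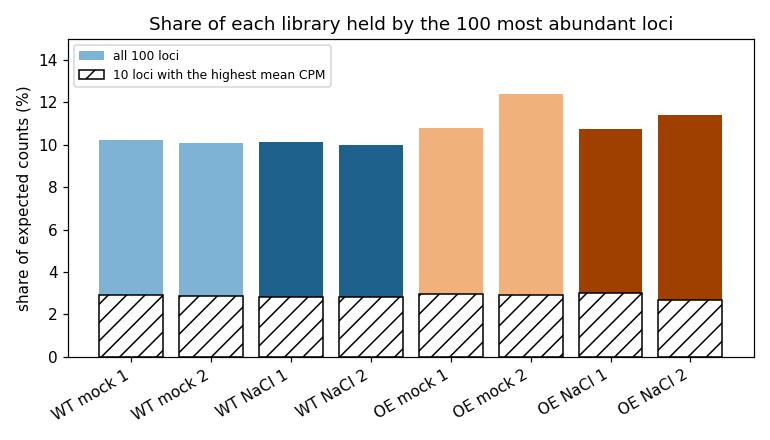
Share of all expected counts, in percent, held by the 100 loci in each library (bars from 0) and by the 10 loci with the highest mean CPM (hatched). The share is 10.01% to 10.2% in the WT libraries and 10.8% to 12.4% in the OE libraries, while the hatched part overlaps between genotypes.

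The members hardly varied between WT libraries and varied widely between OE libraries. The highest WT library exceeded the lowest by a median of 1.05-fold over the 100 loci and by 1.18-fold at most. Over the next 900 loci in abundance this median was 1.08-fold. Over the loci tested, 14.0% differed by 2-fold or more among the WT libraries, and 0 members did. Between pairs of WT libraries the log2 ratio of CPM + 1 had an SD over the members of 0.0394 to 0.0633, where counting error alone would give 0.0319 to 0.0339. The highest OE library exceeded the lowest by a median of 1.78-fold, and 41 members differed by 2-fold or more, against 47.2% of the loci tested. The next 900 loci in abundance were much the same, with a median of 1.78-fold and 39.9% at 2-fold or more. Only 7 members stayed within 1.2-fold over the 4 OE libraries, among them Glyma.17G186600 at 1.14-fold and Glyma.17G039100 (rank 20, coding length 1179 bases) at 1.11-fold. Counts were high enough that counting error is small beside these differences, with 1 exception. Glyma.09G185500 had 9 counts in OE NaCl library 1, and the lowest count of any other member in any library was 116.

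The OE libraries numbered 2 were alike across treatments, and those numbered 1 were not. The SD of the log2 ratio over the members was 0.0787 between OE mock library 2 and OE NaCl library 2, and 0.921 between the OE libraries numbered 1. The value was 0.894 between the OE mock libraries, 1.61 between the OE NaCl libraries, and 1.04 to 1.502 between a WT and an OE library. In 42 members both OE libraries numbered 2 lay above both numbered 1, against 25.9% of the loci tested, and in 35 members they lay below, against 40.8%. OE NaCl library 1 was the highest OE library for 42 members and the lowest for another 42, together 84, against 64.4% of the loci tested. The depth of this library, 6702767 expected counts, was within the range of the 8 libraries, 5980170 to 7199775.

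Single loci show how far the OE libraries were apart. Those in this paragraph were singled out after their values were seen. Glyma.09G185500 on chromosome 9 (rank 43, coding length 762 bases) had 361 to 380.4 CPM in WT. In OE it had 61.1 and 1.34 CPM in mock and NaCl library 1 but 2802 and 2898 in mock and NaCl library 2. The libraries numbered 1 thus lay below WT and those numbered 2 above it. Glyma.09G093000 (rank 18, coding length 612 bases) had 494 to 512 CPM in WT, 742 and 287 in the OE libraries numbered 1, and 4207 and 3679 in those numbered 2. Glyma.13G160400 (rank 100, coding length 684 bases) ran the other way, with 589 and 921 CPM in the OE libraries numbered 1 and 118 and 119 in those numbered 2, against 688 to 724 in WT. Glyma.20G204500 (rank 45, coding length 2013 bases) had 1623 to 1642 CPM in WT and 72.8, 204, 17.3 and 206 CPM in OE mock libraries 1 and 2 and OE NaCl libraries 1 and 2. All OE libraries lay far below WT, but they differed among themselves by 11.9-fold, and the log2 fold changes of -3.42 in mock and -3.79 in NaCl had standard errors of 1.12 and 1.14 and did not pass edgeR's test (adjusted p = 0.101 and 0.0906).

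**Figure D3:**
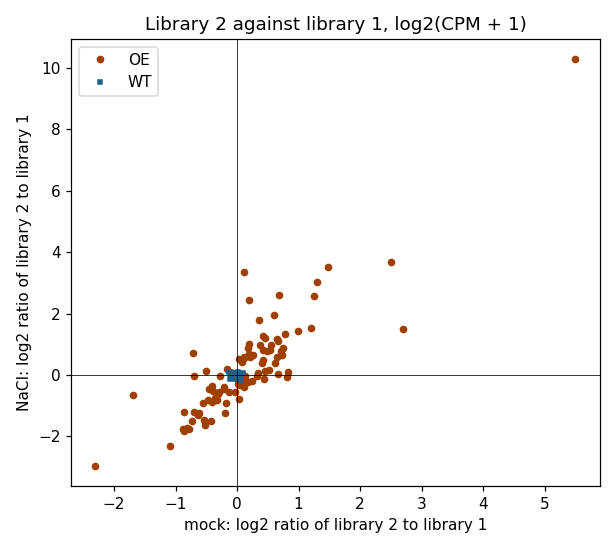
Log2 ratio of library 2 to library 1, on the log2(CPM + 1) scale, for the 100 loci, in mock on the x axis and in NaCl on the y axis. WT points (squares) lie close to 0 on both axes, and OE points (circles) spread along a rising line, so that most loci higher in OE library 2 in mock were also higher in OE library 2 in NaCl.

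In mock-treated seedlings 14 of the 100 loci differed between genotypes in edgeR's quasi-likelihood test, with p-values adjusted over all 34023 loci and a threshold of 0.05. Of the loci tested 8.92% passed, and of the next 900 loci in abundance 14.6% did. Of the 14 members 11 were higher in OE, against 4.2% of the loci tested, and 3 were lower, against 4.72%. The median log2 fold change over the 100 loci was 0.19, against 0.03 over all loci tested, and it was -0.02 for the 100 loci most abundant in WT and 0.54 for those most abundant in OE. A locus strongly higher in OE can enter the first 100 through its OE level alone, and the direction turned with the choice of loci. Among the 100 loci most abundant in WT, 3 were higher and 10 lower in OE, and among those most abundant in OE, 15 were higher and 1 was lower. The members' count and the share over all loci tested moved together with the libraries in the fit. On leaving out either WT mock library 0 members were called, against 0.00283% of the loci tested, and on leaving out WT NaCl library 1 or 2 there were 2, against 1.21% and 1.16%. Without OE mock library 1 or 2 there were 9 and 5, against 7.14% and 2.1%. Without OE NaCl library 1 or 2 there were 39 and 41, against 22.8% and 23.1%. DESeq2 called 24 members, against 10.5% of all loci it tested. Fitting the 4 mock libraries alone gave 18 members, against 10.4% of the loci tested.

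In NaCl-treated seedlings 12 of the 100 loci passed the same test, against 7.89% of the loci tested and 14.1% of the next 900 in abundance. Of these, 10 were higher in OE, against 3.62%, and 2 were lower, against 4.27%. The median log2 fold change over the 100 loci was 0.09, against 0.02 over all loci tested, and it was -0.12 for the 100 loci most abundant in WT and 0.35 for those most abundant in OE. Of the members, 9 were called higher in both treatments, against 2.75% of the loci tested, and 1 was called lower in both, against 3.35%. Together 16 members were called in at least 1 treatment, against 10.7%. Of the 12 higher ones 4 were also among the 100 loci most abundant in WT. Members chosen by their WT level gave 3 higher and 8 lower loci, and members chosen by their OE level 14 and 1. Fitting the 4 NaCl libraries alone gave 0 members, against 0.538% of the loci tested. On leaving out either WT NaCl library 0 members and 0 of the loci tested were called, and without WT mock library 1 or 2 there were 2 members, against 1.4% and 1.46%. Without OE NaCl library 1 or 2 there were 35 and 30, against 20.6% and 9.84%. With models as units 7 were called, against 2.79%, and with DESeq2 23, against 9.39%.

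**Figure D4:**
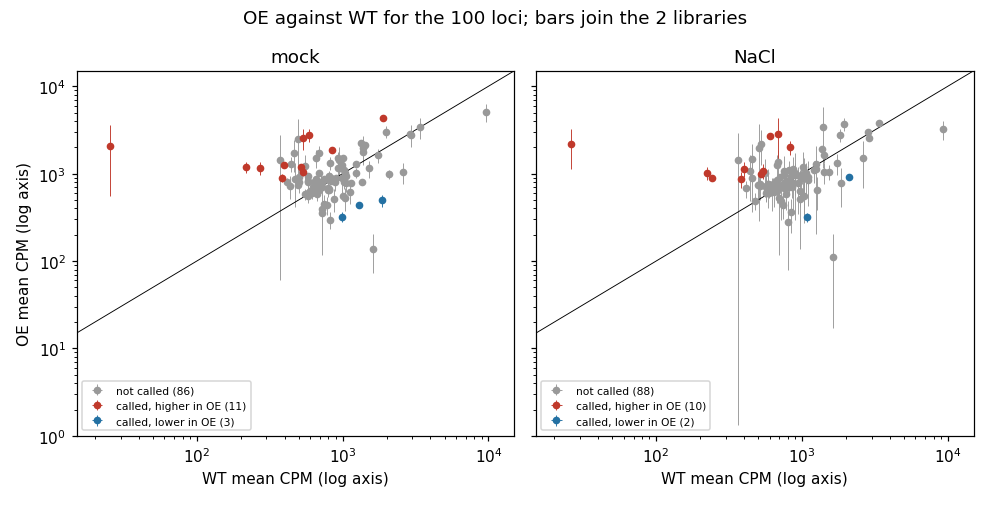
Mean CPM in OE against mean CPM in WT, on log axes, for the 100 loci in mock (left) and NaCl (right). Bars join the 2 libraries of a group and the line marks equal levels. Coloured points passed edgeR's adjusted p of 0.05, 11 higher and 3 lower in mock and 10 higher and 2 lower in NaCl, and many grey points far from the line have long bars.

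The largest rise was at Glyma.09G092700 on chromosome 9 (rank 27, coding length 771 bases). It had 24.7 to 27.5 CPM in WT, 551 and 3567 CPM in OE mock libraries 1 and 2, and 1139 and 3234 CPM in OE NaCl libraries 1 and 2. No OE library was near the WT range, and the libraries numbered 2 were several times above those numbered 1. The log2 fold change was 6.51 with a standard error of 1.12 in mock (edgeR adjusted p = 0.0225) and 6.45 with 1.11 in NaCl (adjusted p = 0.0231). By its WT level alone this locus ranked 9149, and by its OE level 12, so that it is a member only through OE. Both calls were lost on leaving out any 1 WT library and with models as units, and the call in NaCl also with the NaCl libraries alone, with adjusted p up to 0.198 in mock and 0.204 in NaCl over all alternatives.

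Glyma.02G255000 on chromosome 2 (rank 81, coding length 960 bases) also rose in both treatments. Its WT libraries held 211 to 224 CPM, its OE mock libraries 1019 and 1362 and its OE NaCl libraries 848 and 1179. The log2 fold change was 2.57 with a standard error of 0.32 in mock (edgeR adjusted p = 0.0101) and 2.22 with 0.31 in NaCl (adjusted p = 0.0138). The call in mock was lost without either WT mock library, and that in NaCl without any 1 of the 4 WT libraries or with only the NaCl libraries. By its WT level it ranked 485. At rank 83 a locus (chromosome 13, coding length 528 bases), 1 of the 7 with whole counts, had 237 to 278 CPM in WT, 1360.2 and 959 in OE mock and 860.1 and 935 in OE NaCl. Its log2 fold changes, 2.18 with a standard error of 0.22 in mock (edgeR adjusted p = 0.00622) and 1.91 with 0.22 in NaCl (adjusted p = 0.0081), had the smallest adjusted p in mock among the members. This locus ranked 387 by its WT level and 38 by its OE level. Its call was lost on leaving out either WT library of the same treatment and, in NaCl, with the NaCl libraries alone.

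The locus of rank 9 (chromosome 14, coding length 870 bases) was the most abundant that was called higher in both treatments. It had 586 to 606 CPM in WT, 2273 and 3267 in OE mock and 2558 and 2873 in OE NaCl, and its log2 fold changes were 2.34 in mock (standard error 0.30, edgeR adjusted p = 0.0112) and 2.20 in NaCl (standard error 0.30, adjusted p = 0.0129). At rank 17 a locus (chromosome 2, coding length 894 bases) had 811 to 849 CPM in WT and 1618 to 2379 CPM in OE, with log2 fold changes of 1.21 and 1.29. The loci of rank 56 and 86 were also called higher in both treatments, with log2 fold changes of 1.05 and 1.31 in mock and 1.01 and 1.18 in NaCl. By their WT level these loci ranked 107 and 193, and by their OE level 35 and 50. They are thus members only through OE. All calls of the loci of rank 9, 17, 56 and 86 were lost on leaving out any 1 WT library, and their calls in NaCl also with the NaCl libraries alone. The calls in mock at rank 17, 56 and 86 were lost on leaving out either OE mock library, and those in NaCl at rank 56 and 86 with models as units.

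The loci of rank 3, 16, 54 and 55 had longest coding lengths of 2562 to 2580 bases and were called higher in OE in mock. They are set together here after their values were seen. The loci of rank 16, 54 and 55 ranked 110, 112 and 182 by their WT level. Their OE level thus brought them among the 100. Of the 80 loci tested in this range of lengths 6.25% were called higher in mock, and of the 76 outside the members 1 was. The range was taken from these 4 members, which are among the 80. These values are therefore a description and no test of length. The locus of rank 3 (chromosome 15, 2562 bases) had 1878 to 1948 CPM in WT, 4195 and 4423 in OE mock and 3079 and 4296 in OE NaCl. Next to it among the listed loci lies that of rank 54 (2571 bases), which had 503 to 537 CPM in WT and 930.3 to 1258 in OE. At rank 16 (chromosome 13, 2562 bases) the locus had 519 to 536 CPM in WT, 1887 and 3248 in OE mock and 1247 and 3138 in OE NaCl, the libraries numbered 2 being higher. At rank 55 (chromosome 7, 2580 bases) the WT libraries held 389.8 to 403 CPM and the OE libraries 917 to 1363. In all 4 loci every OE library lay above every WT library. Their log2 fold changes in mock were 1.28, 1.28, 2.38 and 1.78 for ranks 3, 54, 16 and 55. In NaCl the loci of rank 54 and 55 were called as well, at 0.97 and 1.56. None of the 4 had whole counts in all libraries. The calls in mock were lost on leaving out any 1 WT library or OE mock library 2. Those in NaCl were lost on leaving out any 1 WT library or with the NaCl libraries alone. With models as units the call in mock at rank 16 and that in NaCl at rank 54 were lost as well.

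Among the lower loci, Glyma.05G187300 on chromosome 5 (rank 74, coding length 3294 bases, the longest of the members) was called in both treatments. It had 983 and 992 CPM in WT mock and 1088 and 1084 in WT NaCl, and 368 and 277 in OE mock and 357 and 278 in OE NaCl. The OE libraries lay close together and far below WT. The log2 fold change was -1.54 with a standard error of 0.20 in mock (edgeR adjusted p = 0.0112) and -1.76 with 0.20 in NaCl (adjusted p = 0.00803). The call in mock was lost without any 1 of the WT libraries, and that in NaCl without either WT NaCl library or with only the NaCl libraries. Per length it was the least abundant member, with a mean of 200.4 FPKM.

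Glyma.11G140500 on chromosome 11 (rank 21, coding length 1950 bases) was called lower in mock. It had 1849 to 1868 CPM in WT, 566 and 420.5 in OE mock and 1166 and 411 in OE NaCl, where library 1 lay between OE library 2 and WT. The log2 fold change was -1.84 with a standard error of 0.42 in mock (edgeR adjusted p = 0.0458) and -1.25 with 0.42 in NaCl (adjusted p = 0.112). Its call in mock was lost in 8 of 16 alternatives, among them upper-quartile scaling, models as units, and leaving out any 1 of the WT libraries or either OE mock library. Of the same coding length, the locus of rank 41 (chromosome 12) had 1252 to 1309 CPM in WT, 469.6 and 409.8 in OE mock and 913 and 386 in OE NaCl, with a log2 fold change of -1.48 in mock (edgeR adjusted p = 0.0489), which was lost in 10 of 16 alternatives. At rank 13 a locus (chromosome 8, coding length 1458 bases) was called lower in NaCl, at -1.17 (edgeR adjusted p = 0.0402), a call lost in 7 of 16 alternatives, among them RLE scaling and models as units. It had 2049 to 2156 CPM in WT and 879 to 1106 in OE. Its neighbour Glyma.08G108900 (rank 95) had 821 to 845 CPM in WT and 210.3 to 510.0 in OE and did not pass (adjusted p = 0.0651 in mock and 0.0932 in NaCl).

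Whether levels overlapped between genotypes was also counted without a model. In 21 members all 4 OE libraries lay above all 4 WT libraries, against 17.6% of the loci tested, and in 17 they lay below, against 21.6%. The other 62 overlapped. Of the 21 and 17 loci, 12 and 4 were called by edgeR in at least 1 treatment. How many of all tested loci without overlap were called was not counted. Loci can also be members through their OE level alone, so 12 and 4 are given only as a description. OE mock libraries 1 and 2 had 16 and 20 members at 2-fold or more above the WT mean, against 15.6% and 16.2% of the loci tested, and 8 and 13 at 0.5 of it or less, against 10.2% and 21.3%. OE NaCl libraries 1 and 2 had 14 and 16 members at 2-fold or more, against 15.3% and 16.9%, and 13 and 14 at 0.5 or less, against 10.4% and 18.8%.

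**Figure D5:**
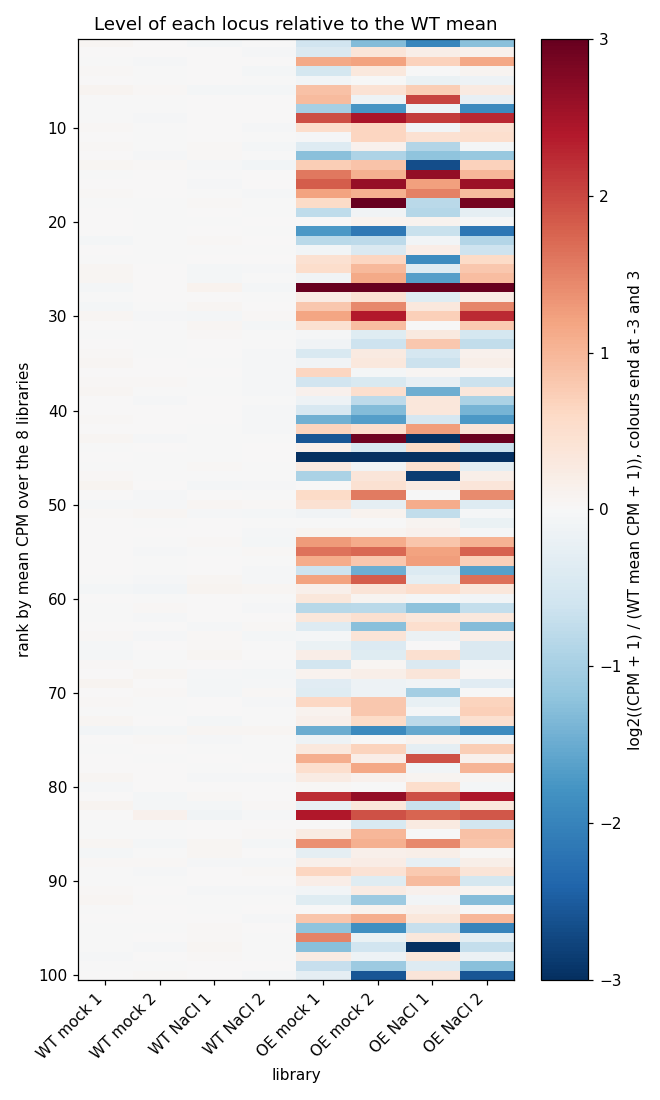
Log2 ratio of CPM + 1 in each library to the WT mean for the 100 loci, ordered by rank in mean CPM, with colours ending at -3 and 3. WT columns are nearly white, OE mock library 2 and OE NaCl library 2 look alike, and OE NaCl library 1 differs from both.

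Some members had equal coding lengths. How often other loci share a length was not counted, so that the number of such sets is given only as a description. There were 15 sets of members with the same longest coding length, 33 loci in all, and 13 of the sets were pairs. The largest set held 4 loci of 1344 bases. Of these, Glyma.17G186600 and Glyma.05G089000 (rank 52) varied little, the second with 833 to 846 CPM in WT and 729 to 892 in OE. Glyma.19G052400 (rank 39) and Glyma.05G114900 (rank 44) did not. The first had 949.9 and 613 CPM in OE mock and 1332 and 545 in OE NaCl, and the second 977 and 637 CPM in OE mock and 1340.5 and 574 in OE NaCl. Both were highest in OE NaCl library 1 and below their WT levels, 1041 to 1072 and 884 to 905 CPM, in the OE libraries numbered 2. Glyma.11G221000 and the locus of rank 15 (chromosome 18) shared 1332 bases. The latter had 677 to 699 CPM in WT, 2046 and 1429 in OE mock and 4287 and 1374 in OE NaCl, and was called higher in NaCl (log2 fold change 2.04, standard error 0.46, edgeR adjusted p = 0.0473), while Glyma.11G221000 was not (1.27, standard error 0.65, adjusted p = 0.254). Leaving out OE NaCl library 1 took the value of the locus of rank 15 to 1.11 (adjusted p = 0.0133), and its call was lost in 10 of 16 alternatives. Whether loci of equal length are copies of each other was not tested.

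The treatment comparison in WT asked whether 6 h of NaCl altered these transcripts. None of the 100 loci passed edgeR's test in the fit of all libraries, against 0.0% of the loci tested. An unadjusted p under 0.05 was found at 0 members and at 111 of the 34023 loci tested. DESeq2 and limma-voom also called 0. Log2 fold changes ran from -0.14 to 0.14, a change of at most 1.11-fold, with 49 values above 0 and 51 below. Their median standard error was 0.33, since this fit gives WT and OE libraries a shared spread. Changes of this size could therefore not pass it. In 22 members both WT NaCl libraries lay above both WT mock libraries, against 17.0% of the loci tested, and in 25 they lay below, against 18.0%. The largest values belonged to the locus of rank 83 (-0.14), Glyma.05G187300 (0.14) and Glyma.14G094700 (rank 59, 0.14). The common biological coefficient of variation, a summary of the spread over all loci, was 32.9% in the fit of all libraries, 3.74% with the WT libraries alone and 46.2% with the OE libraries alone. When the 4 WT libraries were fitted alone, 17 members had an unadjusted p under 0.05 in edgeR's test, as had 2037 of the 30986 loci tested. After adjustment 1 member passed, against 0.0484% of the loci tested. This was Glyma.05G187300, with a log2 fold change of 0.14, a standard error of 0.03 and an edgeR adjusted p of 0.044. Glyma.14G094700 had 648 and 633 CPM in WT mock and 710.0 and 696 in WT NaCl.

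In OE no member passed edgeR's test for NaCl against mock, against 0.0% of the loci tested. Its unadjusted p was under 0.05 at 0 members and at 507 of the 34023 loci tested. DESeq2 and limma-voom called 0 members. Log2 fold changes ran from -0.98 to 0.73 with a median of -0.11 over the members, against -0.0041 over all loci tested. In 8 members both OE NaCl libraries lay below both OE mock libraries, against 7.32% of the loci tested, and in 0 they lay above, against 8.75%. The largest fitted changes were at Glyma.07G226600 (rank 14, coding length 360 bases), Glyma.11G098400 (rank 96, coding length 720 bases) and Glyma.14G085600 (rank 24, coding length 753 bases). Glyma.07G226600 had 2159.8 and 2337 CPM in OE mock and 203 and 2079.7 in OE NaCl, against 1227 to 1345 in WT, so that its fitted change of -0.98 (standard error 0.90) came from OE NaCl library 1. Glyma.14G085600 had 1399.9 and 1602 CPM in OE mock and 274 and 1506 in OE NaCl, again with OE NaCl library 1 apart. Glyma.11G098400 had 1333 and 411 CPM in OE mock and 599.6 and 385 in OE NaCl, and here OE mock library 1 stood apart. Without OE NaCl library 2 the fit called 4 members, 1 higher and 3 lower, against 0.62% of the loci tested, among them Glyma.07G226600 and Glyma.14G085600. That fit takes the spread of the remaining OE NaCl library from the other groups.

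Between the OE libraries numbered 2, which had the least spread of all OE pairs, the members moved together by small amounts. In 89 of 100 loci the CPM was lower in OE NaCl library 2 than in OE mock library 2, against 43.4% of the loci tested, and the median ratio was 0.912, with a range of 0.848 to 1.12. The median ratio over all loci tested was 1.03. With TMM-scaled library sizes, which multiply the ratio of every locus by the same factor, 98 members were lower, with a median ratio of 0.859. The share of all loci tested that was lower on this scale was not counted, so that 98 cannot be set against 43.4%. The 100 loci fell from 12.4% to 11.4% of the counts between these libraries. Between the OE libraries numbered 1, 48 members were lower, against 47.0% of the loci tested, and the ratios ran from 0.022 to 2.14. Each of these pairs has 1 library per treatment, so that the treatment and the library cannot be told apart.

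The interaction of genotype and treatment was tested to see whether the NaCl effect differed between OE and WT. No member passed edgeR's test, against 0.0% of the loci tested. Its unadjusted p was under 0.05 at 0 members and at 231 of the 34023 loci tested. DESeq2 and limma-voom called 0 members. Log2 values ran from -0.89 to 0.71 and the median standard error over the members was 0.47. The largest value, at Glyma.07G226600, had a standard error of 1.26. Without OE NaCl library 2 the fit called 2 members, both lower, against 0.162% of the loci tested, which were Glyma.07G226600 and Glyma.14G085600.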

How the data were processed

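Messenger RNA libraries from root and leaf RNA were sequenced for 8 samples. The authors deposited, per the file headers, the length, expected count and FPKM of each gene model, and no listed count was 0. RSEM is the tool named, per the submitters' processing notes; its version and the aligner, genome build and annotation are not stated in the sources used here. An absent model was set to 0. Expected counts were summed per locus and rounded for tests, and FPKM values were summed per locus and used only to describe levels. Totals were 5980170 to 7199775 expected counts per library, and all member lengths were multiples of 3, so that they are coding lengths.

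The main test was edgeR's quasi-likelihood F test (version 4.0.16 under R 4.3.3; glmQLFit and glmQLFTest after filterByExpr and TMM scaling) on all 8 libraries with 1 coefficient per group and 4 residual degrees of freedom, with Benjamini-Hochberg adjustment over 34023 loci and a threshold of 0.05. Standard errors came from the F statistic. Alternatives used limma 3.58.1 and DESeq2 1.42.0. The scripts were tested on simulated counts. The members, lists and settings were chosen with earlier results of these data known.

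Groups and numbers came from the labels, which do not say whether libraries of a group came from separate plants, so that a p-value here reflects the spread among these libraries alone, which may be technical. The planned rule named the first 10 loci, up to 5 called loci per direction and genotype comparison, the 3 largest changes per treatment comparison and the 3 loci on each side of rank 100. Of called loci only 4 are given by ID, since IDs carry no gene names, and others by rank. Planned lists by product name, leaf and root markers among them, and protein identities could not be applied, since no ID matched the reference table. The labelled organs were therefore not checked against markers.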

Additional observations from a re-analysis of the deposited data

How the results depend on the processing

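The number of members called depended on the libraries in the fit and on the tool. For OE against WT in mock, 14 became 24 with DESeq2 and lay between 0 and 41 when 1 library was left out. For OE against WT in NaCl, 12 became 23 with DESeq2, 0 with only the libraries compared and 7 with models as units, and lay between 0 and 35 when 1 library was left out. For NaCl in WT, 0 became 1 with only the WT libraries, against 0.0484% of the loci tested. It became 3 with a replicate block within WT, against 0.142%. For NaCl in OE and the interaction, counts lay between 0 and 4 and between 0 and 2 when 1 library was left out. Other scalings, the filter, limma-voom and the other choices of members left each total within 1.5 times, but not the directions. In mock, 11 higher and 3 lower became 3 and 10 for members chosen on WT libraries. In NaCl, 10 higher and 2 lower became 3 and 8. The share of counts held by the 100 loci, 1.23 percentage points higher in OE, turned to -0.94 for loci chosen on WT libraries and became 2.54 for loci chosen on OE libraries. Of 26 calls of single members, all kept their direction in all 16 alternatives, and between 6 and 14 of these kept the call. Why the counts, the share and the calls moved with the setting was not tested.

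With a replicate block over all libraries the genotype counts were 16 in mock and 14 in NaCl, against 13.7% and 12.1% of the loci tested. The labels do not say that equal numbers mark a shared origin. Across members, deviations from the group means of OE libraries of equal number had a Pearson r of 0.873, and of WT libraries -0.0593. Across all 34023 loci tested these values were 0.742 and 0.0093. Counting error limits only Glyma.09G185500 in OE NaCl library 1.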

Other observations

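Reads were divided evenly among models at many members. Of the 34 members with 2 or more models, 14 had at least 2 leading models whose shares of the locus differed by at most 0.001 in every library. At Glyma.11G221000, Glyma.06G165200, Glyma.19G052400 and Glyma.05G089000 the leading model held 50% of the counts in every library, and at Glyma.01G026700 33.3%. At Glyma.08G170000, which has 2 models, the share of the model with the higher mean ran from 46.1% to 58.0% over the libraries. These loci were picked out after their values were seen.

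The 8 loci left out by name held 2.96% to 3.08% of the counts in WT libraries and 2.45% to 2.83% in OE libraries, so that these ranges did not overlap, while the ranges of the first 10 members did. This was not tested.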
